A study of Homo sapiens with 8 samples.

Results

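The very long genes described here are those whose gene body region, from 1 kb after the transcription start site (TSS) to the annotated end of the gene, spans 250 kb or more. A body had to exceed 0.5 reads per 1000000 reads of its table (CPM) in at least 2 libraries, and entries with LINC, LOC or antisense names were left out, as were a few single symbols. This gave 649 genes of 23193 in the table and of 16686 whose bodies were tested. The rule used length, name and a minimum of reads, and no difference between groups. Of 798 bodies of this length, 82 did not reach the minimum, and among the members 542 exceeded it in all 8 libraries. It was exceeded only in WT libraries by 11 members and only in HIF1A-/- libraries by 3. Of the members below it in a whole line, 2 were called between the lines. Those 2 calls are not independent of the minimum, and neither are calls of members such as ADCY8, which needed the libraries of the higher line to reach it. The TSS region, a window of 551 bp around the start, held enough reads to be tested for 382 members, while 267 fell under the same minimum there. The members' bodies ran from 251 to 2304 kb with a median of 386 kb: 452 were under 500 kb, 159 lay between 500 and 1000 kb and 38 reached 1000 kb. At the lower limit, SIL1 and UGGT2 lay just inside at 251 kb, with 0.868 and 1.24 reads per kb per 1000000 reads (RPKM), and SV2C and BMPER just outside at 249.543 and 249.962 kb, with 0.00194 and 0.00930 RPKM. By the GENCODE annotation of GRCh37, 627 members matched a gene of the same symbol, 615 of them protein coding, and a median of 2.01% of a member's body was exonic, so that the body counts were mostly reads from introns.

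PRO-seq reports nascent transcription. In this assay engaged RNA polymerase incorporates a labelled nucleotide in permeable nuclei, so that reads mark polymerases in the act of transcribing and not accumulated RNA. The cells were HCT116, an established human colorectal carcinoma line, either wild-type (WT) or HIF1A-/-, a derivative in which internal exons of HIF1A were removed by homologous recombination. Each line was kept in normoxia or exposed to hypoxia of 1% O2 for 90 min, all 4 groups received the vehicle DMSO, and each group held 2 libraries from independent biological replicates. A difference between the genotypes is a difference between these 2 lines, in which the deletion and the separate history of each line cannot be told apart. A library held 18125234 to 23622392 reads in gene bodies, and 2783581 to 5966348 in TSS regions. The 7 epithelial markers examined exceeded 0.5 CPM in every library, with a summed level of 934 to 1423 CPM, against 50.3 to 112 CPM for 12 markers of blood, connective tissue, endothelium and neurons, of which 5 exceeded 0.5 CPM throughout. HIF1A itself had 129 to 172 CPM over all 8 libraries, and because the deletion is internal and nascent reads continue through the gene, its body count does not check the genotype.

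Hypoxia-inducible factor 1 is a transcription factor whose alpha subunit, the product of HIF1A, is destroyed when oxygen is plentiful and accumulates when it is scarce, after which it binds short DNA motifs near genes of glycolysis, glycogen metabolism and other adaptive processes. Very long genes make particular demands on transcription: a polymerase needs hours to cross the longest of them, their expression depends on factors that keep elongation going and on topoisomerases that remove supercoils, and several are sites of recurrent breakage known as common fragile sites. Many encode neuronal adhesion molecules, ion channels and scaffolds that epithelial cells hardly use, while others encode ubiquitin ligases, kinases and transcription regulators found in most tissues.

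Promoter sequences are shown for 6 members on which the comparisons turned. GBE1 and BBX led the response of WT cells to hypoxia, MYCBP2 and RFWD2 had fewer body reads in hypoxia in both lines, MPP7 changed in its TSS to body ratio between the lines, and CDC42BPA was higher in the HIF1A-/- line. Each is the sense strand of GRCh37 from 250 bases before the start used in the count table to 50 after it, and capitals mark the core of the HIF motif, searched as ACGTG and GCGTG on both strands.
GBE1, chr3:81810901-81811200, minus strand: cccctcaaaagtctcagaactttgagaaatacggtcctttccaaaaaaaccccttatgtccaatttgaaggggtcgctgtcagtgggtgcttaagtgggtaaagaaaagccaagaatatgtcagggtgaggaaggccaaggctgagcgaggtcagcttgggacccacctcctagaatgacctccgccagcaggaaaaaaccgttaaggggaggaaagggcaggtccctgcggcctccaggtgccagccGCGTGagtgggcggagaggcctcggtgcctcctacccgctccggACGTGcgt
BBX, chr3:107241532-107241831, plus strand: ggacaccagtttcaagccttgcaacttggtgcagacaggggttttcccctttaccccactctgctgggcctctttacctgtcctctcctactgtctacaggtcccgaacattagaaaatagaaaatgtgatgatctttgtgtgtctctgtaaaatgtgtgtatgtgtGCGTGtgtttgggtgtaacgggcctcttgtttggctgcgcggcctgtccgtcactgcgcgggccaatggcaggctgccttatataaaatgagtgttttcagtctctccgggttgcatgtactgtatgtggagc
MYCBP2, chr13:77901128-77901427, minus strand: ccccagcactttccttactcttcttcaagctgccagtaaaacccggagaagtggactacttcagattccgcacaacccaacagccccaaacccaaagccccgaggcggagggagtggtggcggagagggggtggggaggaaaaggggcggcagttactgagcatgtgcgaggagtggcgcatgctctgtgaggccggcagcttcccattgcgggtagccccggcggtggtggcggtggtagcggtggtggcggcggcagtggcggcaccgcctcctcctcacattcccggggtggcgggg
RFWD2, chr1:176176331-176176630, minus strand: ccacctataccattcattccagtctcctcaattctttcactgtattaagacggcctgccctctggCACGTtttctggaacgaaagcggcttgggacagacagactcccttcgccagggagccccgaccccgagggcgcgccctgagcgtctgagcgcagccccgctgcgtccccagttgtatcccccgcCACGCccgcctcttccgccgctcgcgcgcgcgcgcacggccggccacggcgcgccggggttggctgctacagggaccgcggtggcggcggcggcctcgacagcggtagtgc
MPP7, chr10:28591946-28592245, minus strand: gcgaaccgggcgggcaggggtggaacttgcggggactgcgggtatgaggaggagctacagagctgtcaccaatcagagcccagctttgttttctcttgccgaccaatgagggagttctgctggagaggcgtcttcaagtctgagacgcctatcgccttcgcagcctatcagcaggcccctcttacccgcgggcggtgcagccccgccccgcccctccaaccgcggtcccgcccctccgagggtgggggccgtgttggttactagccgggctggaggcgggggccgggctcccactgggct
CDC42BPA, chr1:227505777-227506076, minus strand: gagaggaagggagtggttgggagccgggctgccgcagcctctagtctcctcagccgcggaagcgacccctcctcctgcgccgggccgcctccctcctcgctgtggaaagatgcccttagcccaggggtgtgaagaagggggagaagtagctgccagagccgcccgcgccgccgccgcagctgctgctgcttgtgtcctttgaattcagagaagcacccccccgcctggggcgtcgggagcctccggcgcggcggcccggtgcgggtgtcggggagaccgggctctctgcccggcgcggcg
The GBE1 window held 2 matches, the BBX window 1 and the RFWD2 window 2, while the windows of MYCBP2, MPP7 and CDC42BPA held none. Such matches are common: 57.2% of the promoters of the 649 very long genes and 58.2% of those of all 16686 tested genes held at least 1, so a match describes the letters and does not mark a binding site.

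The first question was how much transcription these genes carried. Mean body density over the 8 libraries ranged among the members from 0.000434 to 4.03 RPKM with a median of 0.0798 RPKM, against a median of 1.31 RPKM for all tested bodies. Of the members, 161 exceeded 0.5 RPKM, 155 lay between 0.1 and 0.5 RPKM, 113 between 0.01 and 0.1 RPKM, and 220 were at or under 0.01 RPKM, where the minimum of reads was reached only because the region is so long. Density was lower in longer members: the median was 0.188 RPKM under 500 kb, 0.00866 RPKM between 500 and 1000 kb and 0.00197 RPKM from 1000 kb on, and the numbers above 0.5 RPKM in these classes were 145, 16 and 0. The TSS region followed the same division, with 155 of the 161 densest members tested there and 22 of the 220 sparsest.

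**Figure D1:**
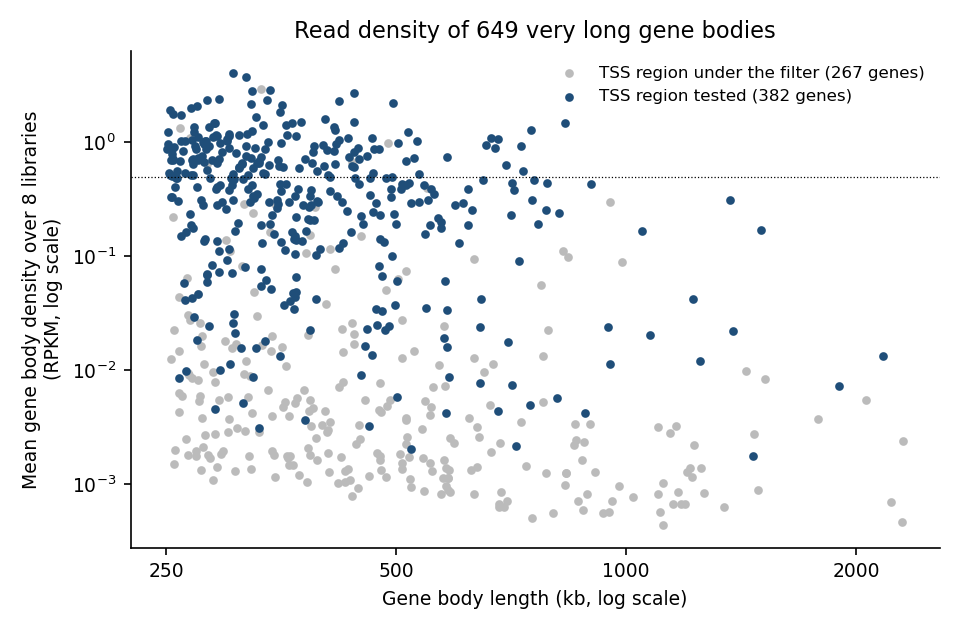
Mean gene body density over the 8 libraries (RPKM, log scale) against body length (kb, log scale) for the 649 very long genes, 1 point a gene, in blue where the TSS region was tested (382 genes) and in grey where it was under the minimum (267 genes). The dotted line marks 0.5 RPKM; 161 genes lie above it, and none of the 38 genes of 1000 kb or more does.

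The densest members in WT normoxia were PVT1, a non-coding RNA gene beside MYC, PPP3CA, a catalytic subunit of calcineurin, PTK2, focal adhesion kinase, STK39, a kinase that regulates ion cotransporters, and ACACA, acetyl-CoA carboxylase of fatty acid synthesis. Their densities in WT normoxia were 4.31, 3.22, 3.03, 2.93 and 2.90 RPKM. The sparsest were OPCML, CNTN5, FGF14, NEGR1 and DACH1, of which OPCML, CNTN5 and NEGR1 encode neuronal cell adhesion molecules, at 0.000352 to 0.000451 RPKM in WT normoxia. The 5 longest members were CNTNAP2, PTPRD, DMD, DLG2 and CSMD1, of 2058 to 2304 kb. DLG2, a scaffold of synapses, had the highest density of these, 0.0132 RPKM over all libraries, and DMD, which encodes the muscle protein dystrophin, had 0.000692 RPKM.

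Groups of members differed in density as well. The groups are broad lists, and a place in a list does not define what a gene does. Adhesion and axon guidance genes were close to silent, with a median of 0.00175 RPKM over 51 members and 39 of them at or under 0.01 RPKM, and 48 channels and transporters had a median of 0.0113 RPKM. The 57 regulators of GTPases and the cytoskeleton had a median of 0.380 RPKM, 54 transcription and chromatin genes 0.284 RPKM, 61 genes of ubiquitin transfer, trafficking and metabolism 0.292 RPKM and 47 kinase, phosphatase and other signalling genes 0.0423 RPKM. The highest medians belonged to 9 RNA-binding genes, at 1.15 RPKM, and 13 genes of replication, repair and the cell cycle, at 0.718 RPKM. The 24 genes of common fragile sites had a median of 0.0115 RPKM, with 12 at or under 0.01 RPKM and 1 above 0.5 RPKM. The remaining 311 members were in none of these lists, and their median was 0.0777 RPKM.

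The members' share of all body reads in WT cells was 8.05% and 8.88% under normoxia and 8.25% and 9.44% under hypoxia. In HIF1A-/- cells it was 7.72% and 8.64%, then 7.37% and 8.14%. In each group replicate 2 held the larger share, and the ranges of the groups overlapped except that both HIF1A-/- hypoxia libraries lay under both WT hypoxia libraries. The means were 8.46 ± 0.585% (SD, n = 2), 8.85 ± 0.838%, 8.18 ± 0.647% and 7.75 ± 0.547% in the same order. Within replicate numbers, hypoxia added 0.201 and 0.560 percentage points in WT cells, and in HIF1A-/- cells the differences were -0.359 and -0.500 points.

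Which very long genes responded to 90 min of hypoxia was asked first in WT cells. GBE1, the glycogen branching enzyme, was the only member whose body reads rose, and no member fell, at a false discovery rate (FDR) of 10% in edgeR's quasi-likelihood test over all bodies. Among all tested bodies, 0.431% were called higher and 0% lower, so 1 member of 649 is no more than that background. At an unadjusted p of 0.05, 9 members were higher and 6 lower, or 1.39% and 0.924%, against 3.51% and 1.10% of all bodies.

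GBE1 (chr3:81538849-81809949 for the body, minus strand, 271 kb) had 111 and 119 CPM under normoxia and 205 and 282 CPM under hypoxia in WT cells. The HIF1A-/- libraries had 100.5 and 109 CPM, and 102 and 98.2 CPM with hypoxia. Both WT hypoxia libraries stood above the other 6, and replicate 2 was the higher of them, while hypoxia left the HIF1A-/- libraries in the range of their normoxia values or just under it. Its log2 fold change in WT cells was 1.05 ± 0.16 (SE), with an adjusted p of 0.0580 in edgeR and 0.00733 with the replicate number as a block. The call was lost without WT normoxia replicate 1 (adjusted p = 0.708), WT normoxia replicate 2 (0.541) or WT hypoxia replicate 2 (0.349). The difference between the lines in this response was -1.15 ± 0.22, with an adjusted p of 0.451, or 0.0697 with the block. Its TSS region, whose promoter is printed above, had 49.1 and 57.7 CPM under normoxia and 75.7 and 66.2 CPM under hypoxia in WT cells. Values in HIF1A-/- cells were 37.0 and 40.3 CPM, and 49.1 and 43.0 CPM with hypoxia. The WT hypoxia libraries were again the highest, but the log2 fold change of 0.44 ± 0.20 did not pass the test (adjusted p = 0.922).

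BBX, which encodes an HMG-box DNA-binding protein, came next by p and was called only with the block. Its body (chr3:107242783-107530176) had 274 and 306 CPM under normoxia and 386 and 462 CPM under hypoxia in WT cells. HIF1A-/- cells had 265 and 329 CPM, and 232 and 293 CPM with hypoxia. The WT hypoxia libraries were again above the other 6, and the HIF1A-/- groups overlapped. The log2 fold change in WT cells was 0.52 ± 0.15, with an adjusted p of 0.632 without the block and 0.0179 with it. The difference in response between the lines was -0.74 ± 0.20, with an adjusted p of 1.00 and, with the block, 0.0522. The other members of the 5 with the smallest p toward more reads, none of them called, were CSMD2 (1.04 ± 0.32), PPP2R2B (1.02 ± 0.34) and FAM160A1 (0.67 ± 0.23), at 0.00967, 0.00542 and 0.330 RPKM. RORA, a nuclear receptor which with GBE1 belongs to a short list of hypoxia targets, had 0.409 to 1.68 CPM over a body of 740 kb and no call in any comparison.

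With the replicate number as a block, 19 members were called higher in WT hypoxia and 5 lower, against 3.73% and 1.77% of all bodies, so that 2.93% and 0.770% of the members were called. The higher ones included, beside GBE1 and BBX, the adhesion genes PTPRM, CSMD2 and NLGN1, the channel genes NALCN and CACNA2D1, the Notch coactivator MAML3, the transcription factor BACH2, the myosin light chain kinase MYLK and the autophagy gene ATG10. Neither share of members exceeded that of all bodies, so the kinds named form no theme. Of the 19, 5 lay at or under 0.01 RPKM and 4 between 0.01 and 0.1 RPKM, where replicates differed most. The lower ones were TYW1B, ZDHHC14, UBR3, ABCA13 and RFWD2, of which UBR3 and RFWD2 encode ubiquitin ligases. ABCA13 differed widely between its WT normoxia replicates. Genes in neither a list nor the 5 smallest p-values were chosen after their values were seen.

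**Figure D2:**
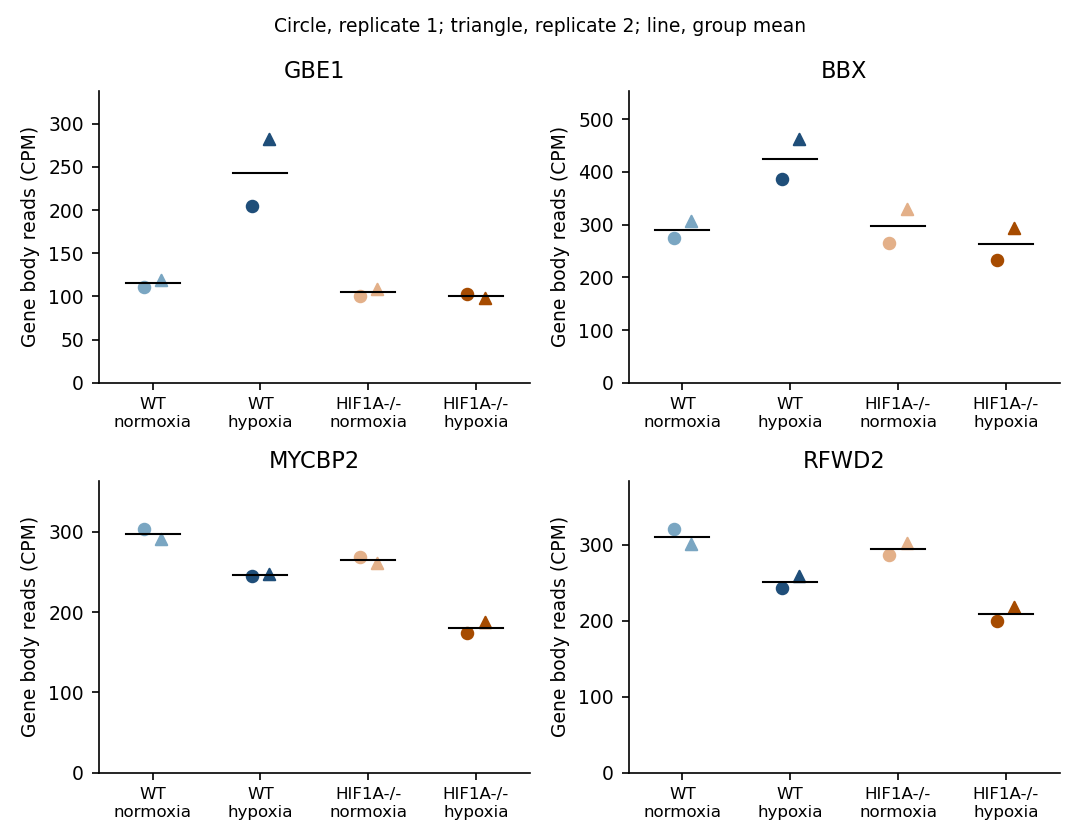
Gene body reads (CPM, linear axes from 0) of GBE1, BBX, MYCBP2 and RFWD2 in each of the 8 libraries, with circles for replicate 1, triangles for replicate 2 and lines for the group means. GBE1 and BBX have their 2 highest values in WT hypoxia; MYCBP2 and RFWD2 have lower values in hypoxia than in normoxia in both lines, and their lowest in HIF1A-/- hypoxia.

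In HIF1A-/- cells no member was called in edgeR in either direction, with or without the block, against 0% of all bodies without it. At an unadjusted p of 0.05 no member was higher and 32 were lower, which is 4.93% of the members against 1.03% of all bodies. DESeq2 called 2 members lower, MYCBP2 and RFWD2, or 1 higher and 15 lower with the block. No share over all bodies is given for DESeq2, so these counts cannot be told from its background. MYCBP2, a very large ubiquitin ligase, has its body at chr13:77618791-77900176, which had 303 and 291 CPM under normoxia and 245 and 247 CPM under hypoxia in WT cells. For HIF1A-/- cells the values were 269 and 261 CPM, and 174 and 187 CPM with hypoxia. In both lines the hypoxia values lay under the normoxia values without overlap, and the HIF1A-/- hypoxia libraries were the lowest of all. The log2 fold change was -0.30 ± 0.11 in WT and -0.60 ± 0.11 in HIF1A-/- cells (adjusted p = 1.00, or 0.114 with the block).

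RFWD2, also known as COP1, a ubiquitin ligase of transcription factors and p53, has its body at chr1:175913961-176175379, which had 321 and 301 CPM under normoxia and 243 and 259.6 CPM under hypoxia in WT cells. The levels without HIF1A were 286 and 303 CPM, and 200.4 and 218 CPM with hypoxia. Its order was that of MYCBP2, with no overlap between hypoxia and normoxia in either line. The log2 fold change in WT cells was -0.34 ± 0.11, called only with the block (adjusted p = 0.0839, against 0.877 without it), and -0.53 ± 0.11 in HIF1A-/- cells (adjusted p = 1.00). The other members of the 5 with the smallest p toward fewer reads in HIF1A-/- hypoxia were CPNE8 (-0.56 ± 0.13), CAMKMT (-0.52 ± 0.13) and SGMS1, a sphingomyelin synthase (-0.43 ± 0.12), none of them called.

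Libraries that did not overlap between oxygen levels were counted among the dense members. Of the 161 members above 0.5 RPKM, 42 had both HIF1A-/- hypoxia libraries under both normoxia libraries, or 26.1%, against 10.6% of all bodies of that density. In 7 they lay above, or 4.35%, against 14.5%. At all densities 12.8% of the 649 members lay lower and 7.24% higher, against 9.15% and 14.4% of all bodies. In WT cells 32 of the 161 lay lower without overlap, or 19.9%, against 21.4%. In both lines at once 19 did, which is 11.8% against 4.08%, with log2 fold changes of -0.39 to -0.09 in WT and of -0.60 to -0.15 in HIF1A-/- cells. At all densities 4.01% of members lay lower in both lines and 2.00% higher, against 3.40% and 4.97% of all bodies. In all 19 dense members the difference was larger in HIF1A-/- cells, although the difference in response was called for none of them. They included UBR3 and BIRC6, which encode further ubiquitin ligases, KMT2C, a histone methyltransferase, NCOA2, a nuclear receptor coactivator, the kinases GSK3B and SRPK2 and the polarity scaffold DLG1, beside MYCBP2, RFWD2, CPNE8 and SGMS1. Members named here from outside the 5 smallest p-values were picked with their values in view.

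For the difference between the lines in the hypoxia response, no member was called without the block, against 0.0539% of all bodies, and 2 were called with it, GBE1 and BBX, against 0.384%. DESeq2 called 1, GBE1, with no share over all bodies to set beside it. At an unadjusted p of 0.05 edgeR had 2 members higher and 3 lower, or 0.308% and 0.462%, against 0.102% and 1.26% of all bodies. Over all 649 members the median of this difference was -0.14 on the log2 scale, and 24.0% of the members lay above 0, against a median of 0.02 and 53.0% for all bodies. Within replicate numbers the members' medians were -0.08 and -0.18. Leaving out 1 library at a time moved the median over all members between -0.33 and 0.04, so its sign depended on single libraries. Among members above 0.5 RPKM the median was -0.14 and 8.70% lay above 0, against 0.03 and 57.1% of all bodies of that density. Between 0.1 and 0.5 RPKM these were -0.15 and 11.6%, against -0.05 and 42.5%, and between 0.01 and 0.1 RPKM -0.19 and 23.0%, against -0.08 and 44.1%. At or under 0.01 RPKM members were like all bodies, with -0.07 and 44.5% against -0.09 and 43.8%. Shorter bodies of 100 to 250 kb had a median of -0.06 with 36.2% above 0.

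Replicates of 1 group differed in these genes as well. The log2 ratio of replicate 2 to replicate 1 had a member median of 0.23 and 0.28 in WT cells under normoxia and hypoxia, and of 0.42 and 0.38 in HIF1A-/- cells, against 0.06, 0.03, 0.11 and 0.10 for all bodies. It was larger in the longer classes, up to 0.61 for bodies of 1000 kb or more in HIF1A-/- normoxia, and larger in sparse members, at 0.49 to 0.71 over the 4 groups for those at or under 0.01 RPKM, while members above 0.5 RPKM had 0.06 to 0.14. Sparse bodies of any length showed this: all tested bodies at or under 0.01 RPKM had 0.60 to 0.81, and bodies under 25 kb between 0.01 and 0.1 RPKM had 0.46 to 0.84, beside 0.56 to 0.91 for members of the latter density. Over all members the replicate medians exceeded every median between groups in size. Among members above 0.5 RPKM they did not, since there the medians between groups reached -0.17 for HIF1A-/- against WT in hypoxia. Its part in the comparisons was not tested.

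With hypoxia the members' median log2 fold change was 0.09 for the WT line and -0.03 for the HIF1A-/- line, and it was -0.05 for HIF1A-/- against WT in normoxia and -0.18 in hypoxia, against -0.02, 0.00, -0.01 and 0.00 for all bodies. By length class over all bodies tested, the medians in WT hypoxia were -0.05 under 25 kb, 0.09 between 250 and 500 kb and 0.15 from 1000 kb on. For HIF1A-/- against WT in hypoxia they were 0.09 under 25 kb, -0.17 between 250 and 500 kb, -0.26 between 500 and 1000 kb and -0.24 from 1000 kb on. Density moved with length, and at like density the WT hypoxia medians of members were not above those of all bodies where reads were sparse. All bodies here include the members. At or under 0.01 RPKM they were 0.25 for members and 0.28 for all bodies, and between 0.01 and 0.1 RPKM 0.23 for members, 0.29 for all bodies and 0.26 for bodies under 25 kb. Between 0.1 and 0.5 RPKM they were 0.06 for members and 0.13 for all bodies. Above 0.5 RPKM they were 0.01 for members and -0.07 for all bodies. Between the lines in hypoxia, members and all bodies had -0.13 and -0.16 at or under 0.01 RPKM and -0.31 and -0.27 between 0.01 and 0.1 RPKM. They had -0.21 and -0.16 between 0.1 and 0.5 RPKM, and -0.17 and 0.05 above 0.5 RPKM. Leaving out 1 library at a time moved the member median in WT hypoxia from -0.05 to 0.22 and that between the lines in hypoxia from -0.38 to -0.05, so the sign of the former depended on single libraries and that of the latter did not.

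**Figure D3:**
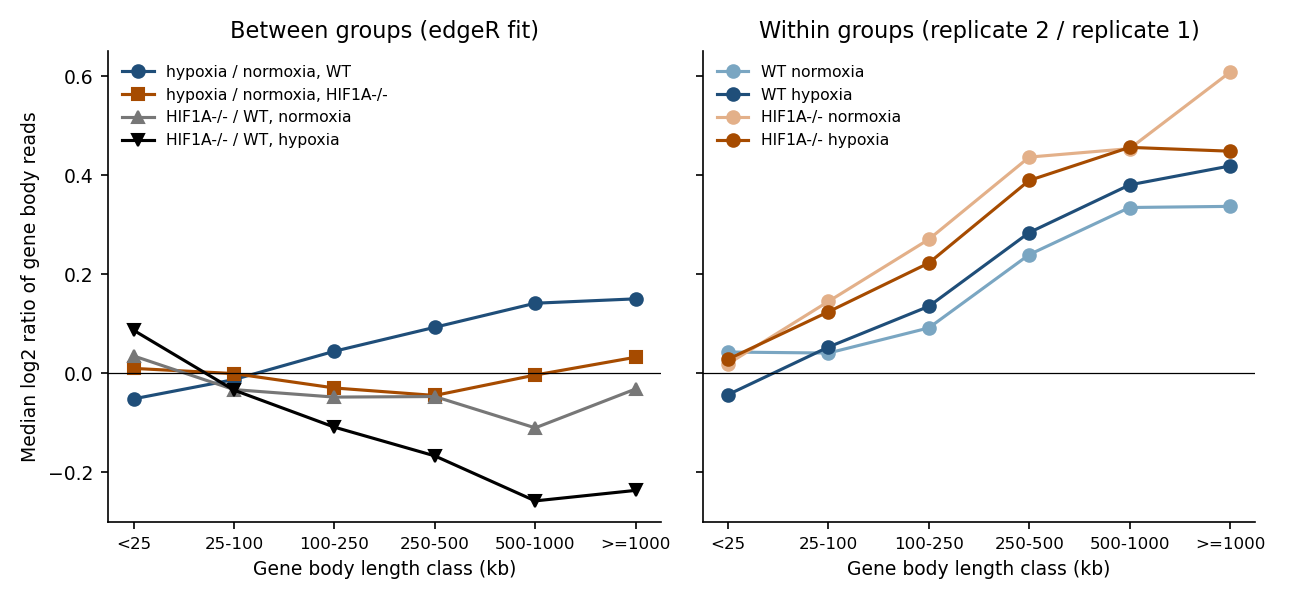
Median log2 ratio of gene body reads for all tested bodies by length class (kb), for the 4 comparisons between groups (left, edgeR fit) and for replicate 2 over replicate 1 within each group (right, offset of 0.1 CPM). The medians between groups stay between -0.26 and 0.15, and those within groups reach 0.61 in the longest class.

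The genotypes differed in many more members than the oxygen levels. In normoxia 9 members were higher and 18 lower in HIF1A-/- cells, or 1.39% and 2.77%, against 0.725% and 1.05% of all bodies. In hypoxia 11 were higher and 40 lower, or 1.69% and 6.16%, against 1.47% and 2.79%. With the block the counts were 42 and 92 in normoxia, against 3.93% and 6.39% of all bodies, and 41 and 200 in hypoxia, against 13.1% and 15.1%, so that 30.8% of the members were called lower in HIF1A-/- hypoxia. The counts depended on single libraries. In hypoxia the 40 became 9 without WT hypoxia replicate 2, 12 without HIF1A-/- hypoxia replicate 1, 20 without HIF1A-/- hypoxia replicate 2, 23 without WT hypoxia replicate 1 and 26 without WT normoxia replicate 1, and the 11 became 2 to 7 without any WT library or either HIF1A-/- hypoxia library. In normoxia the 18 became 3 without WT normoxia replicate 2, 5 without HIF1A-/- normoxia replicate 1 and 8 without WT normoxia replicate 1, and the 9 became 1 without either WT normoxia library.

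Bodies called lower in HIF1A-/- hypoxia were more frequent above 100 kb than below, without a steady rise with length: 1.78% of those under 25 kb, 2.90% between 25 and 100 kb, 5.73% between 100 and 250 kb, 6.90% between 250 and 500 kb, 3.55% between 500 and 1000 kb and 5.0% from 1000 kb on. By density, 3 of the 40 members called lower were at or under 0.01 RPKM, 10 between 0.01 and 0.1, 12 between 0.1 and 0.5 and 15 above 0.5 RPKM. With the block these counts were 31, 46, 63 and 60. In all 52 members called at either oxygen level the 2 libraries of each line did not overlap at the level where they were called. With 2 libraries a group a call all but requires this. Of the 52, 26 were called at both levels. The sign was the same at both levels in 51 of the 52, BBX being the exception. Of the 40 lower in hypoxia, 36 had the larger difference in hypoxia, which follows in part from their selection at that level. The interaction was called for none of the 25 members past the threshold in hypoxia alone.

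Several genes of the cytoskeleton and membrane scaffolds were lower in HIF1A-/- cells. SNTB1, a syntrophin that links the dystrophin complex to signalling proteins, has a body of 275 kb, which had 19.8 and 27.3 CPM under normoxia and 21.4 and 27.7 CPM under hypoxia in WT cells. The HIF1A-/- libraries had 0.864 and 1.56 CPM, and 1.43 and 1.87 CPM with hypoxia. All 4 WT libraries stood more than 10 times above all 4 HIF1A-/- libraries. Its log2 fold changes were -4.28 ± 0.32 in normoxia and -3.90 ± 0.31 in hypoxia, with adjusted p of 0.00120 and 0.00131 in edgeR. NAV3, a microtubule-associated neuron navigator, had 53.9 and 79.9 CPM under normoxia and 60.4 and 88.2 CPM under hypoxia in WT cells. Values in HIF1A-/- cells were 8.55 and 8.51 CPM, and 13.1 and 9.32 CPM with hypoxia. The lines did not overlap, and the log2 fold changes were -2.97 ± 0.29 and -2.73 ± 0.29. TNS3, a tensin of focal adhesions, had smaller log2 fold changes, -0.98 ± 0.15 and -0.79 ± 0.15, and ABLIM1, an actin-binding LIM protein, had -1.15 ± 0.18 and -1.42 ± 0.18.

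MECOM, which encodes the zinc finger transcription factor EVI1, has a body of 579 kb, which had 56.3 and 51.1 CPM under normoxia and 58.9 and 59.9 CPM under hypoxia in WT cells. HIF1A-/- cells had 12.1 and 15.7 CPM, and 11.7 and 16.9 CPM with hypoxia. The lines were well apart, and the oxygen levels lay close together within each line. The log2 fold changes were -1.96 ± 0.19 and -2.07 ± 0.19 (adjusted p = 0.00331 and 0.00217). GLIS3, another zinc finger factor, changed by -1.19 ± 0.19 and -1.48 ± 0.19. Other members lower at both levels were TRHDE (-1.80 ± 0.25 in normoxia, -1.83 ± 0.25 in hypoxia), a peptidase that inactivates thyrotropin-releasing hormone, PSD3 (-1.05 ± 0.16 in normoxia, -1.16 ± 0.16 in hypoxia), an exchange factor for ARF6, and MMP16 (-2.59 ± 0.42 in normoxia, -2.78 ± 0.42 in hypoxia), a membrane-bound matrix metalloproteinase.

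INPP4B, a phosphoinositide phosphatase that acts on PI3K products, has a body of 817 kb, which had 203 and 324 CPM under normoxia and 268 and 398 CPM under hypoxia in WT cells. For HIF1A-/- cells the values were 86.0 and 102 CPM, and 90.3 and 102 CPM with hypoxia. The WT values were spread, with replicate 2 higher at both oxygen levels, yet all stood above the HIF1A-/- values. The log2 fold change was -1.48 ± 0.24 in normoxia and -1.80 ± 0.24 in hypoxia. ISPD, an enzyme of dystroglycan glycosylation, changed by -1.30 ± 0.23 and -1.63 ± 0.23. PPP3CA, the second densest member in WT normoxia, had 816 and 1265 CPM under normoxia and 931 and 1213 CPM under hypoxia in WT cells. The levels without HIF1A were 234 and 468 CPM, and 249 and 401 CPM with hypoxia. Again the lines did not overlap, and the log2 fold changes were -1.58 ± 0.34 and -1.74 ± 0.34. GBE1 was called in hypoxia alone, at -1.29 ± 0.16 (adjusted p = 0.00741) against -0.14 ± 0.16 in normoxia, and so was BBX, at -0.71 ± 0.15 (adjusted p = 0.0497) against 0.03 ± 0.14.

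FHIT, the gene of the fragile site FRA3B and 1503 kb long, had 278 and 364 CPM under normoxia and 294 and 414 CPM under hypoxia in WT cells. The HIF1A-/- libraries had 182 and 172 CPM, and 159.8 and 162 CPM with hypoxia. The lines did not overlap, and the log2 fold change of -1.15 ± 0.19 in hypoxia passed the test (adjusted p = 0.0239), while that of -0.85 ± 0.19 in normoxia did not (0.104, or 0.0174 with the block). Of the 24 fragile site genes, FHIT and CCSER1 were lower in hypoxia, against 2.79% of all bodies, and 1 other, not named here, was higher at both levels. With the block 13 were lower and 3 higher in hypoxia, against 15.1% and 13.1% of all bodies and 30.8% and 6.32% of the members. In normoxia 5 were lower and 3 higher with it, against 6.39% and 3.93% of all bodies and 14.2% and 6.47% of the members. In WT hypoxia 21 of these 24 genes had a positive log2 fold change with a median of 0.20, and none was called. Of all members 67.0% were positive, with a median of 0.09, as were 73.0% of all bodies at or under 0.01 RPKM, the density of 12 of the 24, with a median of 0.28.

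Genes higher in HIF1A-/- cells were fewer and of other kinds. GRIK4, a kainate receptor subunit, had 26.0 and 27.5 CPM under normoxia and 31.1 and 32.9 CPM under hypoxia in WT cells. Values in HIF1A-/- cells were 56.3 and 66.3 CPM, and 60.6 and 70.0 CPM with hypoxia. Every HIF1A-/- library lay above every WT library, and the log2 fold changes were 1.19 ± 0.13 and 1.01 ± 0.13 (adjusted p = 0.00601 and 0.00890). CDC42BPA, a kinase downstream of CDC42 that acts on actomyosin, had 384 and 397 CPM under normoxia and 349 and 415 CPM under hypoxia in WT cells. HIF1A-/- cells had 740.1 and 814 CPM, and 622 and 688 CPM with hypoxia, also without overlap between the lines. Its log2 fold changes were 0.99 ± 0.12 and 0.77 ± 0.12 (adjusted p = 0.00879 and 0.0186).

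MED13L, a subunit of the Mediator kinase module, had a mean density of 3.73 RPKM over all 8 libraries, which includes its higher HIF1A-/- values. It was not among the 5 densest in WT normoxia. Its body had 782 and 975 CPM under normoxia and 710.3 and 911 CPM under hypoxia in WT cells. For HIF1A-/- cells the values were 1543 and 1802 CPM, and 1324 and 1421 CPM with hypoxia. The lines did not overlap, and the log2 fold changes were 0.93 ± 0.15 and 0.75 ± 0.15. Higher at both levels were also PDE4D (1.49 ± 0.25 in normoxia, 1.37 ± 0.25 in hypoxia), a cyclic AMP phosphodiesterase of 1518 kb, and THRB (1.10 ± 0.19 in normoxia, 0.80 ± 0.19 in hypoxia), a thyroid hormone receptor. So were CACNB4 (1.02 ± 0.18 in normoxia, 1.04 ± 0.18 in hypoxia), a calcium channel subunit, and FSTL4 (1.44 ± 0.28 in normoxia, 1.34 ± 0.28 in hypoxia). ADCY8, an adenylyl cyclase, was nearly silent in WT cells, with 6, 5, 5 and 21 body reads in the 4 WT libraries against 56, 60, 62 and 61 in the HIF1A-/- libraries, in the order of normoxia and then hypoxia. It needed the HIF1A-/- libraries to reach the minimum of reads, so its call is not independent of that minimum. NFIB, a nuclear factor I protein, and CACNA1D, a calcium channel, were called higher in hypoxia (0.56 ± 0.13 and 1.28 ± 0.29).

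**Figure D4:**
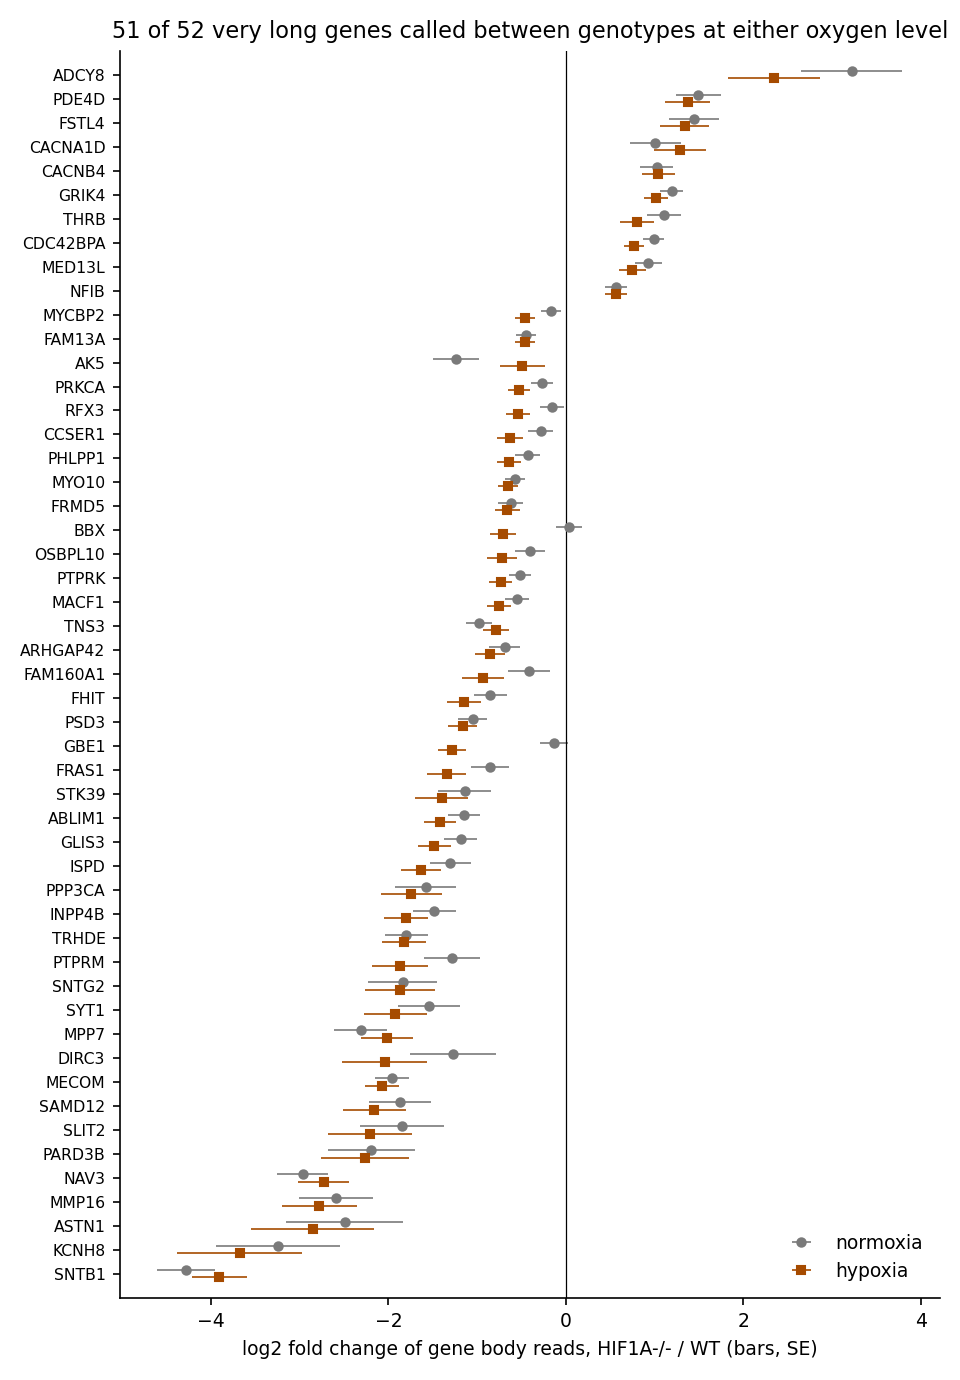
Log2 fold change of gene body reads, HIF1A-/- over WT, for 51 of the 52 very long genes called at either oxygen level, with grey circles for normoxia, orange squares for hypoxia and bars for the SE of the edgeR fit (2 libraries a group). The points of each gene lie on the same side of 0 except for BBX, and 41 genes lie on the lower side in hypoxia, among them AK5, which was called in normoxia alone; GBE1 and BBX have values near 0 in normoxia.

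Most of these calls were lost when at least 1 particular library was left out. Whichever 1 library was left out, the calls that stayed in normoxia were GRIK4, 1 of 9 on the higher side, and SNTB1, MECOM and NAV3, 3 of 18 on the lower. In hypoxia GRIK4 was the 1 of 11 that did on the higher side, and 9 of 40 did on the lower: SNTB1, MECOM, NAV3, ABLIM1, GBE1, GLIS3, INPP4B, PSD3 and TRHDE. The other members named above lost their call at 1 or both levels without at least 1 library, and all of them were called with the block.

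By group, calls between the lines in hypoxia are set beside the 6.16% of members and 2.79% of all bodies that were lower, and the 1.69% and 1.47% that were higher. Of the 57 regulators of GTPases and the cytoskeleton 9 were lower, SNTB1, NAV3, TNS3, MYO10, SNTG2, ARHGAP42, FRMD5, MACF1 and PARD3B, and 1 was higher, CDC42BPA. In normoxia 5 of them were lower, against 2.77% of members and 1.05% of all bodies, and CDC42BPA was again higher. The median over this list was -0.37 in hypoxia with 46 of 57 below 0, beside -0.18 for all members and 0.00 for all bodies. Of 47 kinase, phosphatase and other signalling genes 4 were lower in hypoxia, INPP4B, PPP3CA, PRKCA and STK39, and 1 higher, PDE4D. Of 54 transcription and chromatin genes 3 were lower, MECOM, GLIS3 and RFX3, and 2 higher, MED13L and NFIB. Of 51 adhesion and guidance genes 3 were lower, PTPRK, PTPRM and SLIT2, and none higher. In the broad list of 48 channels and transporters 3 were higher, CACNA1D, CACNB4 and GRIK4, and 1 gene placed with them, SYT1, was lower. Among 61 genes of ubiquitin transfer, trafficking and metabolism 3 were lower, FHIT, GBE1 and OSBPL10, and 1, not named here, was higher. Among 13 genes listed under replication, repair and the cell cycle 1 was lower, CCSER1, and none of 9 RNA-binding genes was called.

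The block raised these counts, as it did those over all bodies, where 15.1% were then lower and 13.1% higher. Lower with it in hypoxia were 30 of the GTPase and cytoskeleton genes, 15 of the kinase, phosphatase and signalling genes, 22 of the transcription and chromatin genes, 11 of the adhesion and guidance genes, 11 of the list of channels and transporters and 15 of the ubiquitin, trafficking and metabolism genes. In the same order 3, 3, 3, 2, 9 and 3 were higher. Of the genes listed under replication, repair and the cell cycle 4 were then lower, among them BRE, CCSER1 and RAD51B, and 1 higher, MAD1L1. Of the RNA-binding genes MSI2 was then lower and ADARB2 higher, at both oxygen levels.

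Neighbouring genes were examined because a change of a whole chromosome segment would reach them. Over tested genes within 1 Mb of each called member, the median log2 fold change between the lines in hypoxia was centred on -0.18 for members lower in hypoxia and on 0.02 for those higher. It was past 0.5 in size for 7 of 39 members lower in hypoxia: PPP3CA (-0.89), RFX3 (-0.80), STK39 (-0.76), SAMD12 (-0.69), KCNH8 (-0.59), NAV3 (-0.53) and SLIT2 (-0.53). Its part in those values was not tested.

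Whether a difference began at the start of the gene was asked from the TSS regions of the 382 members tested there. In WT hypoxia no member was called, against 0.046% of all TSS regions, and with the block 2 were, DLG1 and BRE, against 1.01%. No member was called in HIF1A-/- hypoxia, against 0%, or for the difference in response, against 0.00657%. At an unadjusted p of 0.05, 8 members were higher and 8 lower in WT, 2.09% each, against 2.44% and 1.58% of all TSS regions. In HIF1A-/- cells 2 and 1 were, or 0.524% and 0.262%, against 0.506% and 0.381%, and for the difference in response 3 and 2, or 0.785% and 0.524%, against 0.362% and 0.822%. The DLG1 TSS region had 165 and 187 CPM under normoxia and 251 and 239 CPM under hypoxia in WT cells. The levels without HIF1A were 140.5 and 181 CPM, and 192 and 229 CPM with hypoxia. The WT hypoxia libraries were the highest, at a log2 fold change of 0.51 ± 0.16, while its body reads were lower in both lines in hypoxia without overlap.

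Between the lines 1 TSS region was called in normoxia, SNTB1, against 0.657% of all, and 4 in hypoxia, against 1.1%, and with the block 26 and 71, against 4.29% and 14.4%. The normoxia count became 0 without HIF1A-/- normoxia replicate 1 or any 1 of the 4 WT libraries, and 19 without HIF1A-/- normoxia replicate 2. The hypoxia count became 0 without any 1 of the 4 hypoxia libraries and 22 without either HIF1A-/- normoxia library. The SNTB1 TSS region had 18 and 28 reads under normoxia and 19 and 34 under hypoxia in WT cells. In HIF1A-/- cells it had 2 and 1 reads, then 0 and 1, so that it was close to empty wherever the body was (adjusted p in hypoxia = 0.0325). It needed the WT libraries to reach the minimum of reads, so its calls are not independent of that minimum. INPP4B had 27 and 23 reads, then 24 and 58, in WT cells, and 1 and 8, then 3 and 2, in HIF1A-/- cells (adjusted p in hypoxia = 0.0531). EHBP1, an adaptor of endocytic trafficking, had at its TSS 14.7 and 21.2 CPM under normoxia and 11.6 and 11.9 CPM under hypoxia in WT cells. The HIF1A-/- libraries had 48.1 and 29.6 CPM, and 35.2 and 32.0 CPM with hypoxia. It was higher in HIF1A-/- hypoxia by 1.49 ± 0.32 (adjusted p = 0.0574), and CACNA1D was higher there by 1.79 ± 0.39 (0.0688).

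Most members whose bodies were called lower in hypoxia had a smaller difference at the TSS, while those called higher had a larger median there. All were selected on the body difference, which can enlarge it beside that of the TSS. Of the 40 bodies lower in hypoxia 34 had a tested TSS region, 26 of these with the same sign, 2 called and 13 called with the block, and the median was -0.47 at the TSS against -1.23 in the body. Of the 11 higher, 7 had a tested TSS region, all 7 with the same sign, and the median was 1.73 against 1.01. The TSS values of GRIK4, SNTB1, INPP4B and MECOM rest on few reads in the lower line and depend on the prior count of the fit. A TSS region close to empty in one line, as for SNTB1, was tested through the other line, so its sign is not independent of the minimum. These medians therefore do not show where a difference began. RFX3 and PRKCA had the opposite sign at the TSS, at 1.08 ± 0.32 and 0.69 ± 0.19, beside -0.54 ± 0.14 and -0.53 ± 0.13 in the body.

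The ratio of TSS to body reads of the same library was tested for the same 382 genes. In WT hypoxia no member was called, against 0.193% of all genes, and 1 with the block, MYLK (-1.01 ± 0.27, adjusted p with the block = 0.0327), against 0.483%. None was called in HIF1A-/- hypoxia, against 0%, or for the difference in response, against 0.0207%. Between the lines in normoxia MPP7 was called, against 0.0759% of all genes, and 7 members with the block, against 0.683%. At an unadjusted p of 0.05 the ratio was higher for 7 and lower for 17 members in WT hypoxia, or 1.83% and 4.45%, against 2.06% and 3.13% of all genes. For HIF1A-/- hypoxia these were 13 and 4, or 3.40% and 1.05%, against 0.745% and 0.835%. For the difference in response they were 9 and 1, or 2.36% and 0.262%, against 1.26% and 0.566%.

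MPP7, a scaffold of cell polarity complexes, has a body of 251 kb, which had 331 and 487 CPM under normoxia and 340.3 and 427 CPM under hypoxia in WT cells. Values in HIF1A-/- cells were 59.2 and 107 CPM, and 76.6 and 116 CPM with hypoxia. The WT libraries lay far above the HIF1A-/- libraries, and the log2 fold changes were -2.31 ± 0.30 in normoxia and -2.02 ± 0.30 in hypoxia. Its TSS region had 18.5 and 15.2 CPM under normoxia and 16.6 and 12.9 CPM under hypoxia in WT cells. HIF1A-/- cells had 6.83 and 18.4 CPM, and 9.63 and 17.5 CPM with hypoxia. Here the lines overlapped, so that the TSS to body ratio was higher in HIF1A-/- cells by 1.86 ± 0.34 on the log2 scale (adjusted p = 0.0863, 0.00849 with the block). That call was lost without any 1 of the 4 WT libraries, and 3 members were called without HIF1A-/- normoxia replicate 2. PPP3CA showed the same form: its TSS region had 29.3 and 17.8 CPM under normoxia and 17.7 and 17.9 CPM under hypoxia in WT cells. For HIF1A-/- cells the values were 14.7 and 21.5 CPM, and 17.9 and 18.9 CPM with hypoxia. The lines overlapped there, beside a body difference of -1.58 ± 0.34, and the ratio was called only with the block (1.20 ± 0.38, adjusted p with the block = 0.0517).

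**Figure D5:**
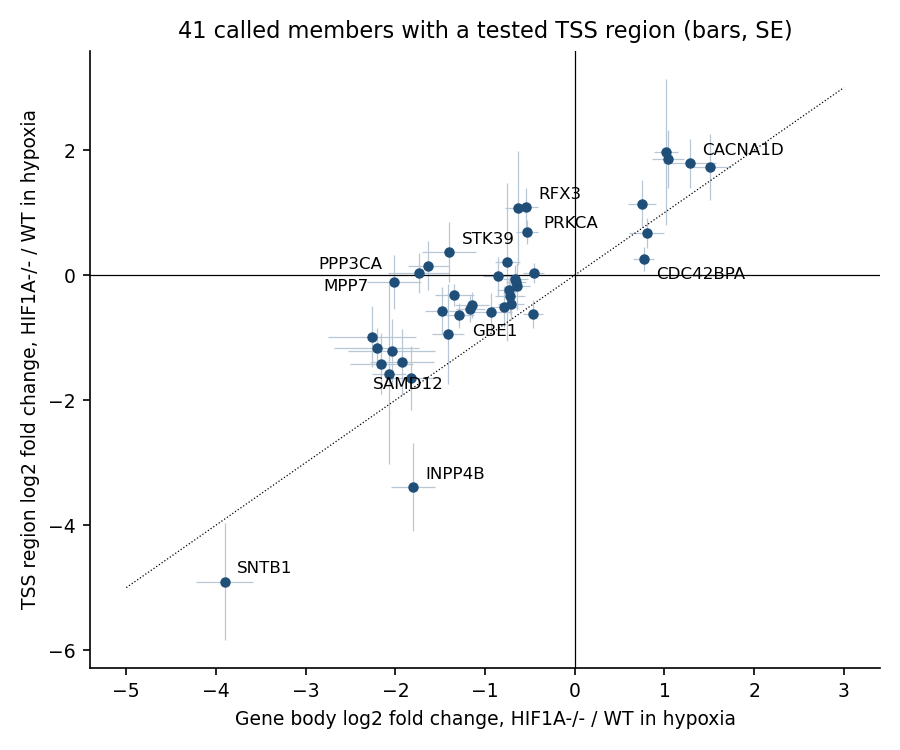
TSS log2 fold change plotted over gene body log2 fold change, HIF1A-/- over WT in hypoxia, for the 41 members called there whose TSS region was tested, with bars for the SE of the edgeR fits and a dotted line of equality. Most points with negative body values lie above the line, and MPP7, PPP3CA and STK39 lie near or above 0 at the TSS; the TSS values of SNTB1, INPP4B, MECOM and GRIK4 rest on groups with at most 3 reads a library and depend on the prior count of the fit.

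Genes that very long genes depend on were examined from a list of 30 factors of elongation, topoisomerases and splicing of long introns, none of which is itself a member. All 30 were tested and 0 were called in any of the 5 comparisons in edgeR. With the block 6 were called higher and 1 lower in HIF1A-/- against WT in hypoxia, or 20% and 3.33% of the list, against 13.1% and 15.1% of all bodies, at log2 fold changes between -0.71 and 0.44 over the list. The one lower was TOP2B, the topoisomerase of long neuronal genes, at -0.71 ± 0.18 (adjusted p = 0.106, 0.00195 with the block), and TOP1 was among those higher, at 0.34 ± 0.11 (adjusted p = 0.188, 0.0238 with the block). The block also called TOP1 higher between the lines in normoxia (0.35, adjusted p with the block = 0.0408) and TOP2B higher in WT hypoxia (0.39, adjusted p with the block = 0.076), 1 of 30 in each, against 3.93% and 3.73% of all bodies.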

How the data were processed

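PRO-seq gene counts of 8 libraries, 2 for each of 4 groups, were analysed. Per the labels and the study's methods, the authors trimmed reads, merged 2 runs per sample, aligned them to GRCh37 with HISAT2 2.1.0 without spliced alignment, kept alignments with a mapping quality over a minimum (SAMtools 1.5) and counted reads with featureCounts of Subread 1.6.2. The deposited values are raw counts per gene in a TSS region of 551 bp and in the gene body, with 1 start and the shortest body kept per gene, so that other starts of a long gene fall inside or outside its body. Of the members, 45 hold another gene of the table on the same strand, with a median of 1.42% of the body shared and over 10% in 10, where counts may be divided between genes, and 200 have a gene on the opposite strand. Reads that are PCR copies are not independent.

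Regions above 0.5 CPM in at least 2 libraries were tested with edgeR 4.0.16 (R 4.3.3; TMM, glmQLFit, glmQLFTest) in 1 fit of 4 group means, with Benjamini-Hochberg adjustment over all regions tested and calls at an FDR of 10%. TSS to body ratios were fitted on both tables side by side (16 columns), each library having its own term. RPKM is the mean CPM over 8 libraries divided by body length in kb. DESeq2 1.42.0, other scalings, no filter on low counts and the omission of single libraries were alternatives. The fits were tested on simulated data.

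Replicate numbers from the labels were taken as pairing the libraries, since same-numbered libraries deviated together from their group means: the 6 correlations were 0.482 to 0.790 for bodies and 0.167 to 0.401 for TSS regions. The fit with the number as a block is given beside the main counts and calls where it changed a call or moved a count by over 1.5 times.

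The members and gene lists were chosen with earlier results of these data known. Genes named are those with the smallest p (up to 10 called per direction, or 5 where fewer than 5 were called), the 5 longest, the 5 densest and 5 sparsest, listed genes and those at the length limit, and any other is said to have been chosen after its values were seen. Some symbols are not reported here. Promoter windows were read from the GRCh37 genome.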

Additional observations from a re-analysis of the deposited data

Results flagged for a closer look

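The response to hypoxia differed between the lines for 2 members when the replicate number was kept as a block. For GBE1 the log2 fold change of body reads in HIF1A-/- cells minus that in WT cells was -1.15 (adjusted p = 0.0697 with the block and 0.451 without it, edgeR). For BBX it was -0.74 (adjusted p = 0.0522 with the block and 1 without it).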

How the results depend on the processing

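Counts of members called depended on the test, the block and single libraries more than on scaling. Shares over all bodies are given above only for edgeR with all libraries, with and without the block. The other counts here compare settings and cannot be set beside a background. With the replicate block the counts higher and lower were 19 and 5 for hypoxia in WT cells, 42 and 92 between the lines in normoxia and 41 and 200 in hypoxia, with 2 lower for the difference in response. DESeq2 gave 26 and 35 between the lines in normoxia, 20 and 65 in hypoxia, 2 lower for hypoxia in HIF1A-/- cells and 1 lower for the difference in response. DESeq2 with the block, chosen after seeing the data, gave 20 and 5, 43 and 81, 37 and 169, 1 and 15, and 3 lower, in the order WT hypoxia, normoxia, hypoxia, HIF1A-/- hypoxia and difference in response. TSS regions called numbered 2 in WT hypoxia with the block; between the lines in normoxia 3 with DESeq2, 14 with no filter and 26 with the block; and in hypoxia 8, 32 and 71. TSS to body ratios called numbered 1 in WT hypoxia with no filter or with the block, and between the lines in normoxia 0 with library totals or TMM from short genes, 6 with no filter and 7 with the block. With 1 library left out at a time, the counts ran from 0 to 1 higher in WT hypoxia, 1 to 9 higher and 3 to 17 lower in normoxia, 2 to 13 higher and 9 to 45 lower in hypoxia, 0 to 19 and 0 to 22 for TSS regions in normoxia and hypoxia and 0 to 3 for ratios in normoxia. The members' median log2 fold change ran from -0.048 to 0.22 for hypoxia in WT cells, -0.22 to 0.16 in HIF1A-/- cells, -0.33 to 0.038 for the difference in response, -0.23 to 0.084 between the lines in normoxia and -0.38 to -0.054 in hypoxia. With library totals the HIF1A-/- median was 0.0040. Among members above 0.5 RPKM, chosen after seeing the data, it was 0.0052 in WT and -0.13 in HIF1A-/- cells. The cause of these differences was not tested. Depth limits the 220 members at or under 0.01 RPKM most, and 267 TSS regions could not be tested.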

Other observations

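Some members varied more between the replicates of a group than between groups, and the following were chosen after their values were seen. SORCS2, a sorting receptor related to sortilin, had 237 and 449.5 CPM under normoxia and 232 and 84.2 CPM under hypoxia in WT cells. In HIF1A-/- cells it had 157 and 184 CPM, then 198 and 194 CPM. Its log2 fold change in WT hypoxia was -1.14 with an SE of 0.45 and was not called (adjusted p = 0.897, edgeR). ABCA13, an ABC transporter, had 5.85 and 0.221 CPM in WT normoxia and 7.18 and 1.18 CPM in HIF1A-/- normoxia, with replicate 1 the higher in both, although replicate 2 held the larger share of reads in very long genes in every group.

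Calls between the lines in hypoxia fell on several chromosomes and were not even among them. Over all members 6.16% were lower and 1.69% higher. Of the 54 members on chromosome 3, 6 were lower and 2 higher in HIF1A-/- hypoxia, of 39 on chromosome 4, 7 were lower, and of 34 on chromosome 8, 4 were lower and 1 higher. None of the 26 members on chromosome X was called at either oxygen level. No share over all bodies of each chromosome is given, so these counts cannot be told from a background.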
